A study of Mus musculus with 16 samples.

Results

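Tirzepatide was added to RAW264.7 cells, a mouse macrophage line, that were given oxidised low-density lipoprotein (oxLDL), and their transcripts were compared with those of cells given oxLDL alone. The 8 libraries of this comparison, 4 with oxLDL and tirzepatide and 4 with oxLDL, were taken by their titles from a series of 16 libraries. The other 8 libraries were 4 with tirzepatide and no oxLDL and 4 vehicle controls. OxLDL was given at 50 µg/ml in both groups that received it. Tirzepatide was given at 100 nmol/ml as the labels write it, in both groups that received it. No duration of treatment is labelled. Nothing says that the 4 libraries of a group were grown separately, so a p-value here reflects the spread between libraries, which may be technical. All groups were cultures of 1 cell line, with no animal, plaque or second cell type.

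Macrophages take up oxLDL through scavenger receptors, store its cholesterol in lipid droplets and become foam cells, the cells that fill an atherosclerotic plaque. They answer with inflammatory mediators, with antioxidant genes under the transcription factor NRF2, and with cholesterol exporters under the nuclear receptor LXR. Tirzepatide is a peptide agonist of the GIP receptor and the GLP-1 receptor, which answer gut incretin hormones and raise cyclic AMP. In these cells Glp1r, the GLP-1 receptor, had 2 counts in all in the 4 libraries of oxLDL with tirzepatide and 0 counts in the 4 oxLDL libraries. Gipr, the GIP receptor, had 2.38, 3.10, 2.79 and 2.95 TPM (a transcript level scaled for transcript length and library depth) with oxLDL and tirzepatide, against 2.83, 1.95, 2.13 and 1.72 TPM with oxLDL. Those groups overlapped (log2 change 0.21, SE 0.22, adjusted p = 0.777 by edgeR).

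Library totals ran from 15877278 to 17336019 expected counts over the series. Of 13 macrophage markers 12 reached 1 TPM in both groups, whereas the 6 T cell markers had 0 counts with oxLDL and tirzepatide and summed to at most 0.297 TPM with oxLDL. Pancreatic acinar markers, which this line should not express, summed to 8.92 to 62.8 TPM with oxLDL and tirzepatide and 7.28 to 41.4 TPM with oxLDL, with 15 and 11 of 24 markers reaching 1 TPM. None of the 14 acinar genes tested was called in the comparison. These markers summed to more in some of the controls, at 24.4 to 335 TPM, and to 8.85 to 70.2 TPM with tirzepatide alone. Of the 14 genes 1 was called for tirzepatide against control. Their part in the tests that use the controls was not tested. Mitochondrial transcripts took 10.5%, 9.37%, 8.38% and 8.10% of the counts with oxLDL and tirzepatide, against 9.32%, 8.91%, 7.69% and 8.36% with oxLDL.

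Library 2 of oxLDL with tirzepatide stood apart from the other 3 libraries of its group on the genes that respond to oxLDL. Its place was read on the 282 genes (2.49% of those tested) raised by oxLDL over vehicle, on a scale from 0 at the control mean to 1 at the oxLDL mean of log2 CPM (counts scaled to library size). The 4 libraries of oxLDL with tirzepatide lay at 0.968, 0.352, 0.987 and 1.00, against 0.959 to 1.03 in the oxLDL libraries, which set the scale. Tirzepatide libraries without oxLDL lay at 0.345 to 0.412, so that library 2 fell inside their range, and controls lay at -0.04 to 0.05. OxLDL lowered 2.05% of tested genes. On the 220 of these that are not acinar genes the 4 libraries of oxLDL with tirzepatide lay at 0.922, 0.679, 0.831 and 1.06, with tirzepatide alone at 0.391 to 0.598. There library 2 lay above the tirzepatide libraries and below the 3 others of its group. Values of the comparison are therefore given with this library and, beside them, without it. Whether it received the labelled treatment in full cannot be told from the files. Over all tested genes, library 1 of this group stood further from the others than library 2 did. The median absolute log2 deviation from the mean of the others was 0.121, against 0.101, 0.095 and 0.0838 for libraries 2, 3 and 4. Values without library 2 still hold library 1.

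**Figure D1:**
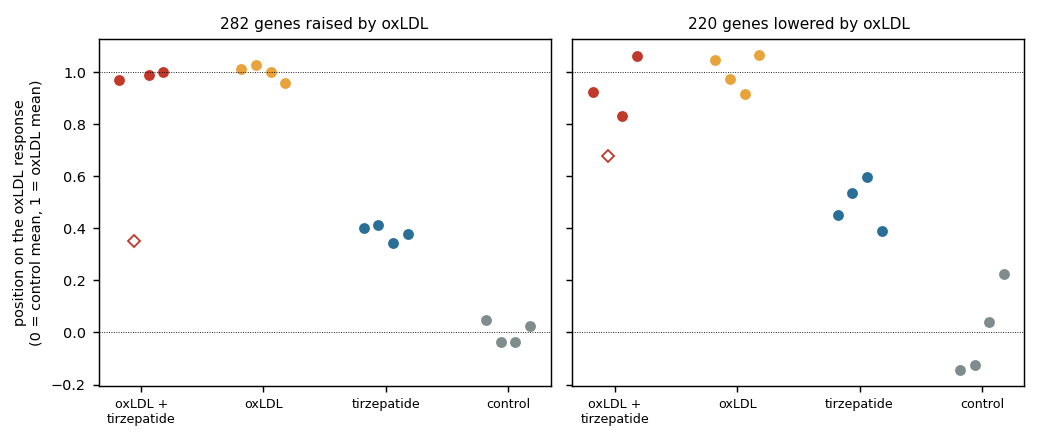
Position of each library on the oxLDL response (vertical axis, no unit; 0 is the control mean and 1 the oxLDL mean), for the 282 genes raised and the 220 genes lowered by oxLDL, with the groups along the horizontal axis and 1 point per library. The open diamond is library 2 of oxLDL with tirzepatide, at 0.352 on the raised genes, beside 0.968 to 1.00 in the other 3 libraries of its group.

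With oxLDL present, tirzepatide raised 4 genes and lowered none at an adjusted p under 0.05. The 4 were Txnip, an arrestin-domain protein that restrains glucose uptake and binds thioredoxin; Arrdc4, its close relative with the same action on glucose uptake; Klf10, a zinc-finger transcription factor first known as an early gene of TGF-beta signalling; and Ints6l, a subunit of the Integrator complex, which processes small nuclear RNAs and ends early transcription. They make up 0.0353% of the 11319 genes tested in edgeR's quasi-likelihood fit of all 16 libraries, beside 1146 genes with an unadjusted p under 0.05. Without library 2 the count was 3 of 11406, or 0.0263%, with 1024 genes under that unadjusted p: Txnip and Klf10 rose and Cd5l fell. DESeq2 called 33 genes (20 higher, 13 lower; 0.205% of 16110) and edgeR with low counts left in 32 (17 and 15; 0.199% of 16115), and Txnip, Klf10, Arrdc4 and Ints6l were among both. The 32 also held Cd5l, Egr1, Gpnmb, Oas2, Samd9l, Igsf6 and Lcn2, described below. Changes were small over the whole transcriptome: 90.2% of tested genes had a log2 change within 0.25 of zero, and the median was -0.00. In bulk libraries fewer cells that express a gene and less RNA per cell cannot be told apart. All log2 changes are oxLDL with tirzepatide over oxLDL unless another comparison is named.

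Txnip and Arrdc4 are textbook targets of MondoA and ChREBP, transcription factors that respond to glucose phosphates and bind carbohydrate response elements, pairs of E-box-like motifs spaced by a few bases. Their promoters are shown because both genes rose. The sequences are from RefSeq on GRCm38.p6, an earlier build than that of the files, and give the 250 bases before the start, 5′ to 3′ on the gene's strand; motifs were searched there and in the 50 bases after it. The Txnip stretch is chr3:96557707-96557956 (plus strand), and the Arrdc4 stretch is chr7:68749239-68749488 (minus strand). Capitals mark the match to CACGNG, 5 bases, CACGNG in Txnip and to the E-box CACGTG in Arrdc4.
Txnip: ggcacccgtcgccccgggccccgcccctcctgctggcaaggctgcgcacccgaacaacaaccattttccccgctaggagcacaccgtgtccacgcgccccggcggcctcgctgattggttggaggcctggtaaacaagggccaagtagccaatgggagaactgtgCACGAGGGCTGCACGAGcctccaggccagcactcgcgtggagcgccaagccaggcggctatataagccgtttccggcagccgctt
Arrdc4: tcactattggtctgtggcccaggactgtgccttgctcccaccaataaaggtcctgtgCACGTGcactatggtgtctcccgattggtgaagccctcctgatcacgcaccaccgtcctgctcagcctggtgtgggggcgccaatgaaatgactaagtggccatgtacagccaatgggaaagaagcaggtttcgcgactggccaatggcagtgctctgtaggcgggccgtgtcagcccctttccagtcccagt
The Txnip match lay 85 to 69 bases upstream of the start, and such a pair stood in 16 of the 32851 promoters of the table, or 0.0487%. The Arrdc4 match lay 193 to 188 bases upstream, and CACGTG stood in 2349 promoters, or 7.15%. The Arrdc4 window held no pair of the form marked in Txnip, and the Txnip window held no CACGTG. The windows of Txnip, Arrdc4 and Ints6l held no cyclic AMP response element (TGACGTCA, in 1.79% of promoters) and no TGACG, its core (in 20.8%), and that of Ints6l held none of these motifs. Both strands were searched, and TGACGTCA holds TGACG. Klf10 was not matched to the table.

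Txnip stood at 864, 1033, 857 and 914 TPM in the 4 libraries of oxLDL with tirzepatide, against 649, 674, 666 and 654 TPM in the oxLDL libraries. All libraries with tirzepatide lay above all without it, and library 2 was the highest. Its fitted log2 change was 0.47 (SE 0.05, adjusted p = 4.83e-06 by edgeR), and 0.40 (SE 0.04, adjusted p = 3.66e-06) without library 2. Without oxLDL, tirzepatide raised it by a like amount (968 to 982 TPM with tirzepatide, 645 to 752 TPM in control; log2 change 0.43, SE 0.05), and the difference between the changes was 0.04 (SE 0.07, adjusted p = 0.876 by edgeR), or -0.03 (SE 0.05, adjusted p = 0.892) without library 2.

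Klf10 had 79.2, 86.3, 76.9 and 76.1 TPM with oxLDL and tirzepatide, against 57.7, 57.0, 55.1 and 55.5 TPM with oxLDL. The groups were far apart for their spread, with 79.6 ± 4.66 TPM against 56.3 ± 1.24 TPM (SD, n = 4 each). On the log2 scale the change was 0.48 (SE 0.05, adjusted p = 4.83e-06 by edgeR), and 0.44 (SE 0.05, adjusted p = 3.29e-05) without library 2. Tirzepatide without oxLDL gave 0.49 (SE 0.05), with 74.4 to 77.4 TPM against 50.6 to 56.3 TPM in control. Both genes were called in each of the 29 other settings and leave-outs tried.

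Arrdc4 had 30.6, 44.4, 34.6 and 37.9 TPM with oxLDL and tirzepatide, against 29.9, 26.2, 27.7 and 25.2 TPM with oxLDL. There was no overlap between the groups, though library 1 with tirzepatide and library 1 without it lay close, and library 2 was again the highest. The log2 change was 0.43 (SE 0.07, adjusted p = 0.011 by edgeR). Without library 2 it was 0.34 (SE 0.06) and no longer passed (adjusted p = 0.0525), nor did it without oxLDL 2, 3 or 4 (adjusted p = 0.0744, 0.117 and 0.0661 by edgeR). Tirzepatide without oxLDL gave 0.31 (SE 0.07, adjusted p = 0.0127), a call that was lost without control 2 or tirzepatide 2 (adjusted p = 0.0712 and 0.0625 by edgeR).

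Ints6l had 53.1, 54.5, 48.3 and 52.5 TPM with oxLDL and tirzepatide, against 41.7, 40.6, 43.4 and 44.1 TPM with oxLDL. No library crossed between the groups, and library 2 lay within reach of the others of its group. The log2 change was 0.28 (SE 0.05, adjusted p = 0.0369 by edgeR), and 0.27 (SE 0.06, adjusted p = 0.152) without library 2. This call was the least stable of the 4: it was lost without control 2 or 4, any oxLDL library, tirzepatide 1, 2 or 3, or library 1, 2 or 4 of oxLDL with tirzepatide (adjusted p from 0.0534 to 0.167 by edgeR). Ints6l differed from the other 3 called genes in that tirzepatide alone left it at -0.01 (SE 0.05), with 47.2 to 52.0 TPM against 45.2 to 52.0 TPM in control. The difference between the changes with and without oxLDL was 0.29 (SE 0.07), which did not pass (adjusted p = 0.127 by edgeR; 0.28, SE 0.08, adjusted p = 0.17 without library 2). OxLDL alone had lowered it, with a change of -0.20 (log2, SE 0.05, adjusted p = 0.02 by edgeR), so that the libraries with both agents lay near the controls.

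**Figure D2:**
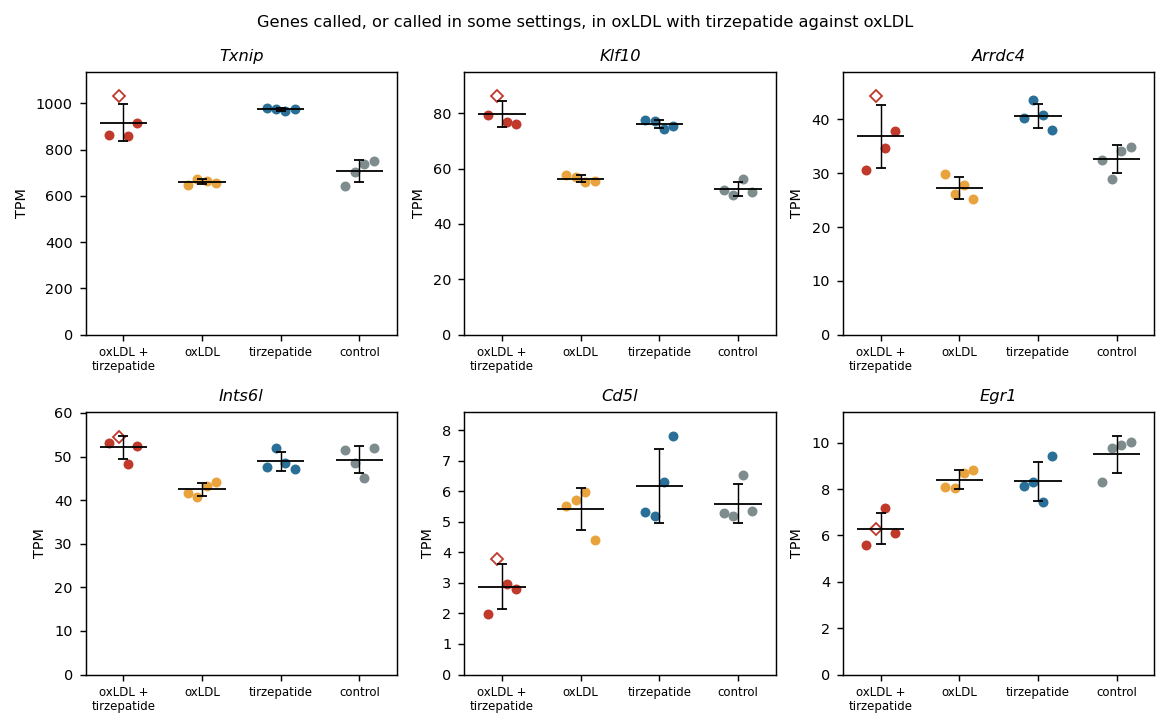
TPM (vertical axes, from 0) of Txnip, Klf10, Arrdc4, Ints6l, Cd5l and Egr1 in each library, by group; bars are the mean and SD of 4 libraries, and the open diamond is library 2 of oxLDL with tirzepatide. Txnip lies at 857 to 1033 TPM with oxLDL and tirzepatide and at 649 to 674 TPM with oxLDL, and for Cd5l the 4 libraries of oxLDL with tirzepatide lie below every library of the other groups.

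By the sign of their changes, the other genes of these families did not follow as groups. Of 16 tested members of the MondoA and ChREBP axis, which holds Txnip, Arrdc4 and Klf10, 3 were called, 10 had a positive log2 change and the median was 0.01, beside 0.0353% called, 48.7% positive and a median of -0.00 over all tested genes. Without library 2, 2 were called and 10 were again positive, with a median of 0.03. Of the 16, the 3 called included, 7 had an unadjusted p under 0.05, beside 10.1% of all tested genes. With and without library 2, 4 of the 16 lay above the oxLDL range in every library and 1 below. Over all tested genes the shares were 3.08% and 1.67%, or 5.18% and 3.02% without library 2. Of 12 Kruppel-like factors 1 was called with and without library 2 and 6 were positive (5 without library 2). Klf11, the nearest relative of Klf10, had 22.03, 19.3, 23.2 and 24.3 TPM with oxLDL and tirzepatide, against 17.3, 18.2, 21.0 and 19.9 TPM with oxLDL. The groups overlapped through library 2, and the log2 change was 0.20 (SE 0.07, adjusted p = 0.358 by edgeR), or 0.25 (SE 0.07, adjusted p = 0.449) without that library. Tirzepatide without oxLDL raised Klf11 (0.33, SE 0.07, adjusted p = 0.00988 by edgeR), a call lost without tirzepatide 1. In that comparison 3 of the 12 Kruppel-like factors were called higher, beside 2.34% of all tested genes. Of 16 Integrator subunits 1 was called and 9 were positive (0 and 8 without library 2).

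Cd5l, a secreted protein of macrophages that binds oxidised lipids and promotes their survival, was lower with tirzepatide. It had 1.97, 3.77, 2.97 and 2.80 TPM with oxLDL and tirzepatide, against 5.53, 5.73, 5.96 and 4.41 TPM with oxLDL. The groups did not overlap, and the gene was covered by 192 counts in all with oxLDL and tirzepatide. The log2 change of -0.91 (SE 0.18) did not pass in the main fit of all libraries (adjusted p = 0.0847 by edgeR). The -1.07 (SE 0.19) without library 2 did (adjusted p = 0.0463). With all libraries the gene passed with the replicate number as a block (adjusted p = 0.0406 by edgeR). It also passed with the term for libraries 1 and 2 against 3 and 4 (adjusted p = 0.0349) and with low counts left in (adjusted p = 0.00926). Tirzepatide alone gave 0.11 (SE 0.17), and the difference between the changes was -1.02 (SE 0.25, adjusted p = 0.127 by edgeR), or -1.18 (SE 0.25, adjusted p = 0.0569) without library 2.

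Most early-response genes had negative log2 changes with tirzepatide, none of them past the test. Egr1, a transcription factor induced within minutes of growth factor or stress signals, had 5.59, 6.26, 7.20 and 6.12 TPM with oxLDL and tirzepatide, against 8.08, 8.04, 8.71 and 8.83 TPM with oxLDL. Neither group reached into the other; the log2 change was -0.42 (SE 0.08, adjusted p = 0.0847 by edgeR), and -0.43 (SE 0.09, adjusted p = 0.253) without library 2. It passed when control 1 or library 3 of oxLDL with tirzepatide was left out (adjusted p = 0.0443 and 0.0343 by edgeR). With all libraries it passed with the replicate number as a block (adjusted p = 0.0395 by edgeR). It also passed with the term for libraries 1 and 2 against 3 and 4 (adjusted p = 0.0347) and with low counts left in (adjusted p = 0.0195). Of 17 AP-1 and EGR factors 1 had a positive change (median -0.09), and 4 without library 2 (median -0.11). By library, however, the median of that list stood at -0.25, -0.12, 0.00 and 0.01 with oxLDL and tirzepatide, as log2 CPM less the oxLDL mean, against -0.04 to 0.07 with oxLDL. Libraries 3 and 4 thus lay inside the oxLDL range. Jun, a subunit of AP-1, had 33.6, 41.1, 47.7 and 45.8 TPM with oxLDL and tirzepatide, against 44.9, 49.3, 49.3 and 49.3 TPM with oxLDL (log2 change -0.20 with and without library 2, SE 0.07 and 0.08, adjusted p = 0.364 and 0.485 by edgeR). Of 12 MAP kinase phosphatases, which switch off the kinases that drive these factors, 2 were positive (median -0.12; 3 and -0.09 without library 2). Dusp4 of this family had 54.4, 56.7, 70.1 and 69.5 TPM with oxLDL and tirzepatide, against 71.3, 67.9, 75.5 and 80.4 TPM with oxLDL (log2 change -0.24, SE 0.08, adjusted p = 0.358; -0.20 without library 2, by edgeR). Its libraries 1 and 2 were the low ones. Of 20 cyclic AMP and CREB response genes 4 were positive (7 without library 2) and none was called. Of 23 genes of incretin receptors and cyclic AMP signalling 9 were positive (13 without library 2) and none was called.

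Inflammatory genes raised by oxLDL showed most plainly how library 2 bore on the group. Il1b, the cytokine interleukin-1 beta, had 23.2, 3.91, 25.9 and 23.4 TPM with oxLDL and tirzepatide, against 16.4, 18.7, 16.8 and 13.7 TPM with oxLDL. Library 2 lay near the 3.38 to 4.03 TPM of tirzepatide alone, and the other 3 lay above every oxLDL library. The log2 change was 0.21 (SE 0.29, adjusted p = 0.837 by edgeR) with all libraries and 0.55 (SE 0.16, adjusted p = 0.449) without library 2. Ptgs2, the inducible cyclooxygenase, had 191, 79.9, 222 and 216 TPM with oxLDL and tirzepatide, against 205, 215, 233 and 200 TPM with oxLDL. Its log2 change was -0.27 (SE 0.16, adjusted p = 0.579 by edgeR) and -0.03 (SE 0.06, adjusted p = 0.888) without library 2. Csf3, the granulocyte colony-stimulating factor, had 8.43, 1.92, 10.8 and 11.2 TPM with oxLDL and tirzepatide, against 9.35, 8.51, 8.26 and 7.03 TPM with oxLDL, and its change was -0.05 (SE 0.30) with all libraries and 0.28 (SE 0.20) without library 2 (adjusted p = 0.969 and 0.688 by edgeR).

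The cytokine Tnf had 108, 149, 122 and 116 TPM with oxLDL and tirzepatide, against 119, 109, 119 and 121 TPM with oxLDL. Library 2 lay far above the oxLDL range and the others near it, and the log2 change was 0.08 (SE 0.07) with it and -0.03 (SE 0.05) without it (adjusted p = 0.706 and 0.89 by edgeR). Nos2, the inducible nitric oxide synthase, had 42.5, 57.9, 52.3 and 46.6 TPM with oxLDL and tirzepatide, against 49.5, 49.6, 59.3 and 55.3 TPM with oxLDL (log2 change -0.10, SE 0.09; -0.19, SE 0.09 without library 2). The chemokines Ccl2 (0.37, SE 0.25; 0.13, SE 0.26 without library 2) and Ccl5 (-0.22, SE 0.20; -0.41, SE 0.20 without library 2) overlapped between the groups, Ccl5 only through library 2. Cxcl2, a neutrophil attractant, had 209, 196, 290 and 300 TPM with oxLDL and tirzepatide, against 270, 319, 321 and 300 TPM with oxLDL (log2 change -0.28, SE 0.09, adjusted p = 0.305; -0.19, SE 0.08, adjusted p = 0.488 without library 2, by edgeR). Its libraries 1 and 2 lay below every oxLDL library, and edgeR called it with low counts left in (adjusted p = 0.0434). Il6 stayed at 1.89 to 2.57 TPM with oxLDL and tirzepatide and 1.09 to 3.77 TPM with oxLDL (log2 change -0.14, SE 0.36; -0.11 without library 2; 0.08 without oxLDL 4). Il15, a cytokine of natural killer and T cells, had 5.57, 7.98, 5.89 and 6.45 TPM with oxLDL and tirzepatide, against 9.54, 7.78, 10.9 and 11.6 TPM with oxLDL (log2 change -0.40, SE 0.15, adjusted p = 0.391; -0.51, SE 0.16, adjusted p = 0.449 without library 2, by edgeR).

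As lists, markers of the M1 and M2 states of macrophage polarisation held no called gene. Of 15 tested M1 markers 10 were positive (median 0.06), and 7 without library 2 (median -0.00). Of 9 tested M2 markers 3 were positive (median -0.07), and 4 without library 2 (median -0.00). The usual M2 markers Arg1 and Mrc1 could not be tested, with 4 and 0 counts in all with oxLDL and tirzepatide and 0 and 0 with oxLDL. Of 23 cytokines and receptors 13 were positive (12 without library 2), of 8 chemokines 1 (1), and of 24 NF-kB genes 14 (11), with none called in any of these lists. The chemokine median was -0.11, and -0.22 without library 2. By library it was -0.26, 0.24, -0.26 and -0.14 with oxLDL and tirzepatide, against -0.06 to 0.20 with oxLDL. No chemokine lay outside the oxLDL range in all 4 libraries. Without library 2, 3 of the 8 lay below it, beside 3.02% of all tested genes, and none above. The kinase Ikbke, which acts on NF-kB and interferon signalling, had 19.4, 35.6, 19.8 and 23.01 TPM with oxLDL and tirzepatide, against 18.6, 15.4, 18.9 and 18.5 TPM with oxLDL. The groups did not overlap, but the log2 change of 0.39 (SE 0.13) was 0.13 (SE 0.08) without library 2 (adjusted p = 0.358 and 0.621 by edgeR).

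**Figure D3:**
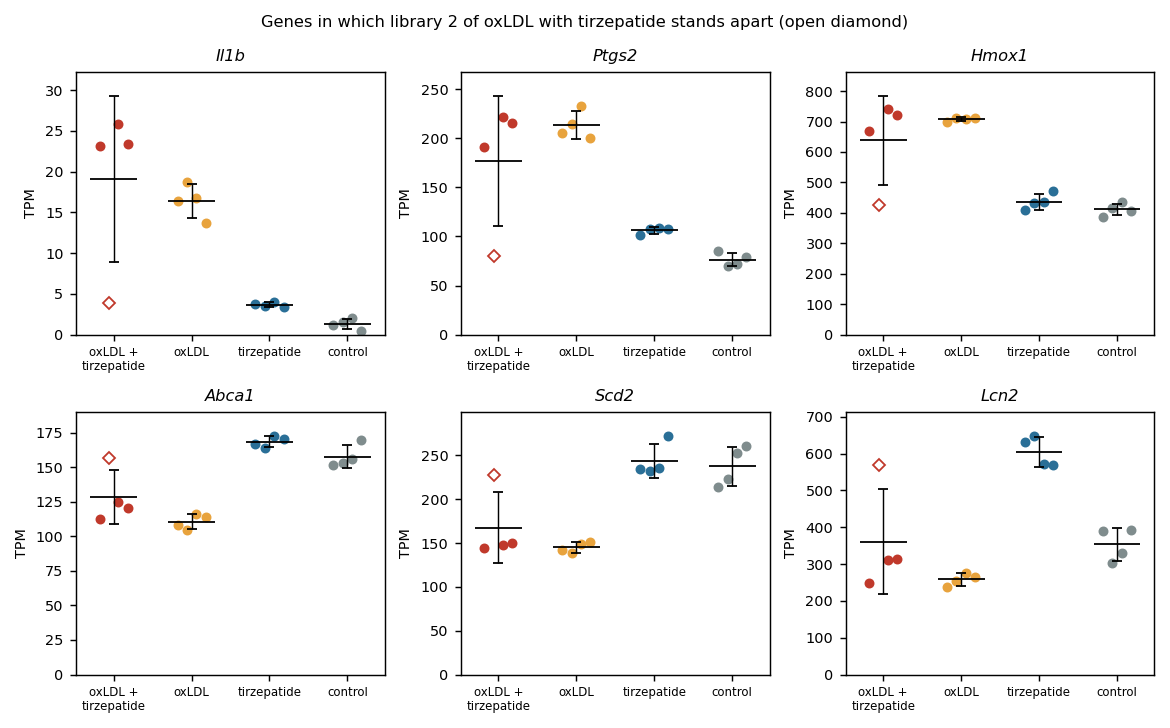
TPM (vertical axes, from 0) of Il1b, Ptgs2, Hmox1, Abca1, Scd2 and Lcn2 in each library, by group; bars are the mean and SD of 4 libraries, and the open diamond is library 2 of oxLDL with tirzepatide. That library lies among the tirzepatide libraries for Il1b (3.91 TPM) and away from the other 3 of its group in all 6 panels.

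Genes of lipid handling divided the same way. Plin2, the coat protein of lipid droplets, had 708, 524, 727 and 785 TPM with oxLDL and tirzepatide, against 712, 730, 708 and 694 TPM with oxLDL. Its log2 change was -0.06 (SE 0.07) with library 2 and 0.04 (SE 0.05) without it (adjusted p = 0.815 and 0.811 by edgeR). The cholesterol exporter Abca1 had 113, 157, 125 and 120 TPM with oxLDL and tirzepatide, against 108, 105, 116 and 114 TPM with oxLDL, which gave 0.21 (SE 0.06, adjusted p = 0.303) on the log2 scale and 0.10 (SE 0.04, adjusted p = 0.469) without library 2. The exporter Abcg1 had a change of 0.10 (SE 0.08) with all libraries and -0.05 (SE 0.05) without library 2. Scd2, a stearoyl-CoA desaturase, had 144, 228, 148 and 150 TPM with oxLDL and tirzepatide, against 143, 138, 149 and 152 TPM with oxLDL, so that its change of 0.21 (SE 0.09) was 0.03 (SE 0.04) without library 2. Of 24 LXR and efflux genes 10 were positive (7 without library 2), of 25 cholesterol synthesis genes 10 (8), of 19 fatty acid synthesis genes 13 (9), and of 22 lipid droplet and PPAR genes 6 (7), with none called.

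Of 35 NRF2 targets, the antioxidant genes that oxLDL induces, 14 were positive (13 without library 2) and none was called. Hmox1, which breaks down haem, had 668, 425, 740 and 722 TPM with oxLDL and tirzepatide, against 700, 712, 707 and 712 TPM with oxLDL. The 3 other libraries straddled the oxLDL range, and the log2 change was -0.15 (SE 0.09, adjusted p = 0.592 by edgeR) with library 2 and -0.01 (SE 0.04, adjusted p = 0.985) without it. Slc7a11, the cystine importer, had 153, 116, 151 and 152 TPM with oxLDL and tirzepatide, against 143, 138, 143 and 131 TPM with oxLDL; without library 2 the groups did not overlap, with 0.13 (log2, SE 0.06, adjusted p = 0.527 by edgeR) in place of 0.04 (SE 0.07, adjusted p = 0.882).

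The medians of the lysosomal and foam cell lists lay slightly lower in all 4 libraries with tirzepatide, with no member past the test. Of 62 lysosome and autophagy genes 14 were positive, with a median log2 change of -0.07, and 15 with a median of -0.06 without library 2; none was called. By library the median of the list was -0.06, -0.11, -0.05 and -0.05 with oxLDL and tirzepatide, as log2 CPM less the oxLDL mean, against -0.02 to 0.00 with oxLDL. Of 20 foam cell and lipid-associated macrophage genes 2 were positive (median -0.07), and 4 without library 2 (median -0.06). Over all tested genes, 189 (1.67%) lay below the oxLDL libraries in all 4 libraries of oxLDL with tirzepatide and 349 (3.08%) above, or 342 (3.02%) and 586 (5.18%) without library 2, whereas 6 of the 62 lysosome genes and 4 of the 20 foam cell genes lay below and none above. Without library 2 the counts below were again 6 and 4, and 1 lysosome gene lay above.

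Gpnmb, a glycoprotein of lipid-laden macrophages, had 251, 197, 261 and 245 TPM with oxLDL and tirzepatide, against 280, 284, 314 and 300 TPM with oxLDL. The groups did not overlap, and library 2 was the lowest. The log2 change was -0.29 (SE 0.07, adjusted p = 0.173 by edgeR), and -0.22 (SE 0.06, adjusted p = 0.449) without library 2. DESeq2 called Gpnmb with all libraries (adjusted p = 0.0184), as did edgeR with low counts left in (adjusted p = 0.00437). It also passed with the replicate number as a block (adjusted p = 0.0238 by edgeR) and with the term for libraries 1 and 2 against 3 and 4 (adjusted p = 0.0344). Without library 2 it passed with only the groups compared (adjusted p = 0.0357 by edgeR). OxLDL alone had raised Gpnmb by 0.28 (SE 0.07, adjusted p = 0.0125 by edgeR). Tirzepatide without oxLDL also lowered Gpnmb (-0.25, SE 0.07, adjusted p = 0.0319 by edgeR). That call was lost without control 2, 3 or 4 or tirzepatide 1, 2 or 3. The difference between the changes with and without oxLDL was -0.04 (SE 0.09, adjusted p = 0.903 by edgeR), or 0.04 (SE 0.08) without library 2. Cd68, a lysosomal membrane protein of macrophages, had 628, 608, 624 and 616 TPM with oxLDL and tirzepatide, against 669, 698, 673 and 686 TPM with oxLDL (log2 change -0.14 with and without library 2, SE 0.04; DESeq2 adjusted p = 0.0402). The lysosomal enzymes Ctsb (-0.11, SE 0.04; -0.08 without library 2) and Hexa (-0.16, SE 0.04; -0.14 without library 2) did not overlap between the groups either and were called by DESeq2 (adjusted p = 0.0402 and 0.0494). Naglu, another such enzyme, had a change of -0.28 (SE 0.10; -0.25 without library 2) with groups that overlapped. The macrophage surface receptor Adgre1 (F4/80) had 202 to 239 TPM with oxLDL and tirzepatide and 244 to 264 TPM with oxLDL (log2 change -0.13, SE 0.04, adjusted p = 0.358; -0.11 without library 2). The scavenger receptor Msr1, in contrast, had 105 to 115 TPM with oxLDL and tirzepatide and 94.2 to 100.4 TPM with oxLDL (0.17, SE 0.07, adjusted p = 0.41; 0.21 without library 2). The other scavenger receptors Cd36 and Olr1 were too low to test, with 4 and 6 counts in all with oxLDL and tirzepatide. Without oxLDL, tirzepatide also lowered Hexa (-0.19, SE 0.04) and Adgre1 (-0.22, SE 0.04) and raised Msr1 (0.44, SE 0.07; adjusted p = 0.0173, 0.00719 and 0.000755 by edgeR). The Hexa call was lost without control 2 or 3 or tirzepatide 1 or 2. Cd68, Ctsb and Naglu did not pass in that comparison (adjusted p = 0.169, 0.682 and 0.0652 by edgeR).

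Interferon-stimulated genes tended the other way. Of 31 tested, 28 had a positive change (median 0.18), and 25 without library 2 (median 0.13). None was called. Without oxLDL, tirzepatide gave a positive change in 24 of the 31 (median 0.18), beside 49.9% of all tested genes. There 4 were called higher and 0 lower, beside 2.34% and 1.74% of all tested genes. OxLDL alone gave the list a median change of -0.30 against control. The median of the list by library was 0.04, 0.30, 0.18 and 0.14 with oxLDL and tirzepatide, against -0.02 to 0.05 with oxLDL, so that library 1 lay inside the oxLDL range and library 2 was the highest. Oas2, a sensor of double-stranded RNA, had 13.8, 18.2, 19.1 and 16.3 TPM with oxLDL and tirzepatide, against 13.2, 12.2, 12.5 and 12.5 TPM with oxLDL (log2 change 0.39, SE 0.09, adjusted p = 0.173; 0.37, SE 0.10, adjusted p = 0.449 without library 2, by edgeR). The groups did not overlap. It passed when control 1 or library 1 of oxLDL with tirzepatide was left out (adjusted p = 0.0323 and 0.0397 by edgeR). Parp14, an ADP-ribosyltransferase, had 4.40 to 4.60 TPM with oxLDL and tirzepatide and 3.02 to 3.92 TPM with oxLDL (0.33 with and without library 2, SE 0.09 and 0.10). Ifih1, the RNA sensor MDA5, had 5.75 to 7.18 TPM with oxLDL and tirzepatide and 4.69 to 5.61 TPM with oxLDL (0.31, SE 0.09; 0.30 without library 2). Herc6, a ubiquitin ligase of the same list, had 3.89 to 4.40 TPM with oxLDL and tirzepatide and 5.12 to 5.57 TPM with oxLDL, a change of -0.33 (SE 0.09; -0.34 without library 2). Samd9l, an antiviral factor, had 0.41 (SE 0.09, adjusted p = 0.173 by edgeR), and 0.40 without library 2. It was called by DESeq2 (adjusted p = 0.021), and by edgeR without control 1 (adjusted p = 0.0323). In edgeR it also passed with the replicate number as a block (adjusted p = 0.00499, or 0.0185 without library 2). The term for libraries 1 and 2 against 3 and 4 gave 0.00747 (0.00779 without library 2), and only the groups compared gave 0.0347 (adjusted p). Even so, oxLDL 2 at 21.2 TPM lay above all libraries with tirzepatide.

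Further lists held mitochondrially encoded genes and cytosolic ribosomal proteins. Of 13 mitochondrially encoded genes 12 were positive with a median of 0.11 (13 and 0.09 without library 2). Their median by library was 0.34, 0.15, 0.00 and -0.06 with oxLDL and tirzepatide, against 0.15, 0.10, -0.20 and -0.06 with oxLDL. The mitochondrial share of counts given above was computed from these same genes, so it moves with this list by construction. Of 53 cytosolic ribosomal proteins 3 were positive with and without library 2 (medians -0.07 and -0.09), 7 lay below the oxLDL range in every library (14 without library 2), beside 1.67% of all tested genes (3.02% without library 2), and none was called. Rpl3 of this list had a change of -0.12 with and without library 2 (SE 0.04; DESeq2 adjusted p = 0.0494 with all libraries). The part of the mitochondrial share in the ribosomal list was not tested.

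**Figure D4:**
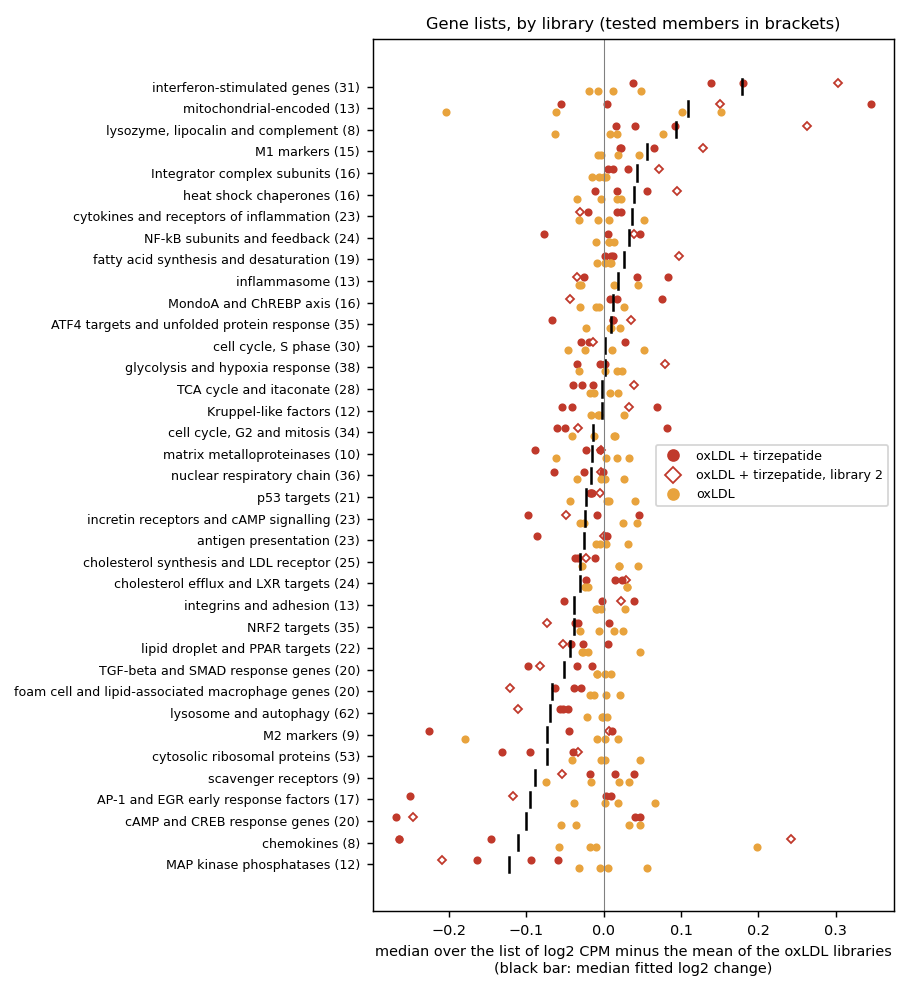
Median over each gene list of log2 CPM less the mean of the oxLDL libraries (horizontal axis), for each library of oxLDL with tirzepatide (upper row of points, open diamond for library 2) and of oxLDL (lower row of points), with the number of tested members after each list's name and a black bar at the median fitted log2 change. For lysosome and autophagy all 4 libraries with tirzepatide lie below the oxLDL libraries, and for interferon-stimulated genes library 1 lies among them.

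Genes with small p-values outside these lists were of mixed function, and not all are described. Ppfibp2 and Ezr, lower, and Zbtb26 and Gm4631, higher, had p-values of like size and groups that did not overlap. DESeq2 called Ppfibp2 and Gm4631 (adjusted p = 0.0494 and 0.0402), and edgeR with low counts left in called Gm4631 (adjusted p = 0.0437). Above the oxLDL range lay Cfp, properdin of the complement system (125, 167, 138 and 146 TPM with oxLDL and tirzepatide, against 117, 121, 119 and 114 TPM with oxLDL; 0.29, SE 0.07, adjusted p = 0.173; 0.20 without library 2). It was called by DESeq2 (adjusted p = 0.0213). Gins2, a factor of DNA replication forks, had 12.9 to 16.3 TPM with oxLDL and tirzepatide and 8.75 to 12.4 TPM with oxLDL (0.46, SE 0.11; 0.40 without library 2). The membrane ubiquitin ligase Rnf145 had 36.0 to 42.5 TPM with oxLDL and tirzepatide and 30.8 to 35.7 TPM with oxLDL (0.23, SE 0.05; 0.18 without library 2), and attractin, Atrn, 46.9 to 47.5 TPM with both agents and 42.0 to 44.0 TPM with oxLDL (0.14, SE 0.04; 0.13 without library 2). Bnip3, a mitophagy receptor induced by low oxygen, had 79.5 to 95.0 TPM with oxLDL and tirzepatide and 67.3 to 78.8 TPM with oxLDL (0.26, SE 0.07; 0.24 without library 2). Below the oxLDL range lay Parvb, an adaptor of integrin adhesions (26.8 to 31.4 TPM with oxLDL and tirzepatide and 32.1 to 43.9 TPM with oxLDL; -0.30, SE 0.06; -0.28 without library 2). The pyrophosphate exporter Ank had 309 to 352.5 TPM with oxLDL and tirzepatide and 352.7 to 388 TPM with oxLDL (-0.17, SE 0.04; -0.16 without library 2). The zinc importer Slc39a10 (-0.54, SE 0.12; -0.42 without library 2), the small GTPase Rab20 (-0.51, SE 0.12; -0.46) and Itprip (-0.27, SE 0.06; -0.23) lay below the range too. None of these passed in the main fit of all 16 libraries (adjusted p from 0.136 to 0.272 by edgeR). DESeq2 called Atrn, Ank, Parvb, Rnf145 and Itprip as well as Cfp (adjusted p = 0.00486, 0.00924, 0.0113, 0.0291 and 0.0402 for the first 5). With low counts left in, edgeR called Gins2, Cfp, Slc39a10, Parvb and Rab20 (adjusted p = 0.00926, 0.0106, 0.0106, 0.011 and 0.0398). With the replicate number as a block it called Parvb, Slc39a10, Ank, Gins2 and Bnip3 (adjusted p = 0.00921, 0.0189, 0.0406, 0.0478 and 0.0478). With the term for libraries 1 and 2 against 3 and 4 it called Slc39a10, Parvb and Ank (adjusted p = 0.0233, 0.0337 and 0.0347). Parvb passed when control 1 was left out (adjusted p = 0.0323 by edgeR), Cfp without library 1 of oxLDL with tirzepatide (0.0397) and Rab20 without library 4 of that group (0.0374). Tirzepatide without oxLDL also raised Cfp (0.48, SE 0.07, adjusted p = 0.000169 by edgeR) and Atrn (0.17, SE 0.04, adjusted p = 0.00801).

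Without oxLDL, 462 of 11319 genes (4.08%) were called for tirzepatide against control, 2.34% higher and 1.74% lower. With upper quartile scaling the split was 172 higher and 273 lower. The count rested on single libraries: it was 119 without control 2, 186 without tirzepatide 1, 199 without tirzepatide 2, 247 without control 3, 293 without tirzepatide 3, up to 542 without library 2 of oxLDL with tirzepatide, and 264 with only the groups compared. Counts of calls in both comparisons do not test a difference between them, which the direct test below does. The comparison with control shares no library with the one beside oxLDL. Of the genes higher with tirzepatide alone, 3 were called beside oxLDL (2 without library 2), against 0.0353% of all tested genes (0.0263%). In the same set 25 (35 without library 2) lay above the oxLDL range in every library, against 3.08% (5.18%) of all tested genes, and 196 (74.0%) had a positive change, against 48.7%. Without library 2 the positive count was 186 (70.2%). The median log2 change beside oxLDL was 0.04 (0.03 without library 2). Of the 197 lower genes none was called beside oxLDL with or without library 2. Of these 13 (21 without library 2) lay below the oxLDL range in every library, against 1.67% (3.02%) of all tested genes, and 154 (78.2%) had a negative change, against 51.3%; without library 2 that count was 150 (76.1%). The median was -0.08 (-0.07 without library 2). Both sets were chosen by their change without oxLDL, which that choice tends to enlarge, so no difference in size is read from these medians. The genes raised by tirzepatide alone, averaged per library as log2 CPM less the oxLDL mean, stood at 0.05, 0.07, 0.03 and 0.04 with oxLDL and tirzepatide, against -0.01 to 0.01 with oxLDL. Over the 462 genes the 2 sets of changes had a Spearman correlation of 0.479 and a Pearson correlation of 0.037; without library 2 they were 0.435 and -0.055. These are correlations across genes, which are not independent.

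Igsf6, Lcn2 and Itgam rose with tirzepatide alone, and Cryab fell. None of the 4 passed beside oxLDL in the main fit of all 16 libraries, though Igsf6 and Lcn2 did with low counts left in. Igsf6 also passed with the replicate number as a block (adjusted p = 0.00742 by edgeR). With the term for libraries 1 and 2 against 3 and 4 it passed as well (adjusted p = 0.00747, or 0.0225 without library 2). Igsf6, an immunoglobulin-family receptor of myeloid cells, had 33.4, 34.3, 25.5 and 30.0 TPM with oxLDL and tirzepatide, against 22.3, 26.1, 19.98 and 19.9 TPM with oxLDL. Library 3 lay below oxLDL 2, and the log2 change was 0.48 (SE 0.12, adjusted p = 0.202; 0.42 without library 2), against 0.69 (SE 0.12) without oxLDL. Lcn2, which withholds iron from bacteria, had 248, 570, 310 and 314 TPM with oxLDL and tirzepatide, against 237, 254, 277 and 265.4 TPM with oxLDL. Its library 2 lay among the 568 to 648 TPM of tirzepatide alone, and the change of 0.48 (SE 0.15) was 0.16 (SE 0.08) without it, against 0.75 without oxLDL. The integrin Itgam had 73.9 to 85.6 TPM with oxLDL and tirzepatide and 66.6 to 76.2 TPM with oxLDL (0.16, SE 0.05; 0.15 without library 2), against 0.36 (SE 0.05) without oxLDL. Cryab, a small heat shock protein that fell with tirzepatide alone (-1.14, SE 0.15), had 13.1, 18.7, 15.2 and 18.1 TPM with oxLDL and tirzepatide, against 25.0, 21.0, 21.3 and 24.2 TPM with oxLDL. The groups did not overlap (-0.47, SE 0.16, adjusted p = 0.358; -0.56 without library 2).

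**Figure D5:**
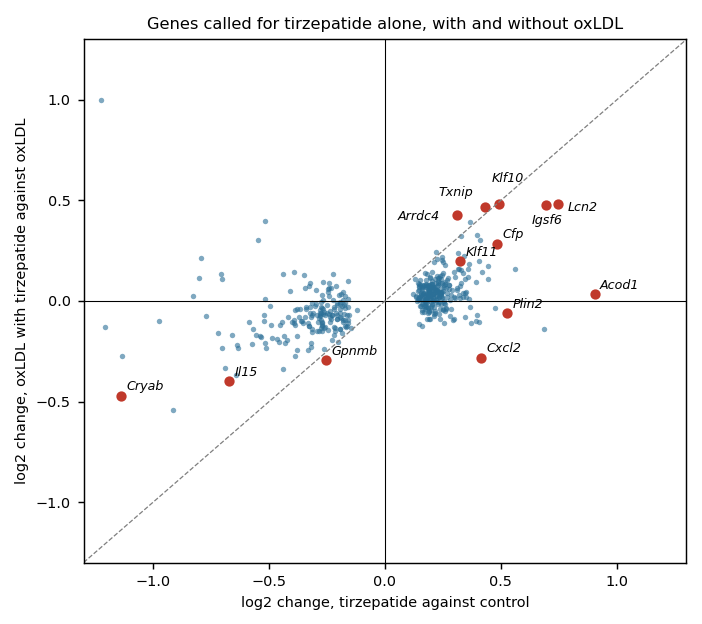
Log2 change for oxLDL with tirzepatide against oxLDL (vertical axis) and for tirzepatide against control (horizontal axis), 1 point per gene, for 444 of the 462 genes called in the second comparison; the other 18 lie outside the axes at 1.3, and the dashed line marks equal changes. Txnip, Klf10 and Arrdc4 lie near that line, while Acod1, at 0.90 without oxLDL and 0.03 beside it, lies on the horizontal axis.

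A direct test of whether the change beside oxLDL differed from that without it called 8 genes (0.0707% of 11319), 5 with a lower and 3 with a higher change beside oxLDL, and 9 without library 2 (0.0789% of 11406). The 5 lower ones were Acod1, Cxcl2, Plin2, Nlrp3 and Sema3e, and the higher ones Stc1, Chrnb1 and Dixdc1. Without library 2, Acod1, Plin2, Cxcl2 and Sema3e were again among those called, and Csf3, Ptgs2 and Lcn2 were added. Acod1, the enzyme that makes itaconate, had 24.0, 23.3, 22.7 and 23.9 TPM with oxLDL and tirzepatide, against 24.9, 23.2, 22.1 and 21.4 TPM with oxLDL. Tirzepatide alone had 22.7 to 26.6 TPM and control 11.2 to 14.0 TPM, so that the ranges with each agent alone and with both overlapped, all above control. The log2 change was 0.03 (SE 0.08; 0.03 without library 2) beside oxLDL and 0.90 (SE 0.08) without it, and the difference of -0.87 (SE 0.11, adjusted p = 0.000704 by edgeR; -0.87, adjusted p = 0.00255 without library 2) was called in each of 23 other settings.

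The difference for Plin2 was -0.59 (SE 0.11, adjusted p = 0.0221 by edgeR; -0.48, SE 0.07, adjusted p = 0.00318 without library 2), with a change of 0.53 (SE 0.08) without oxLDL. That for Cxcl2 was -0.70 (SE 0.12, adjusted p = 0.0221; -0.60, SE 0.11, adjusted p = 0.0211 without library 2), with 0.41 (SE 0.09) without oxLDL. That for Nlrp3, the sensor of the inflammasome, was -0.42 (SE 0.08, adjusted p = 0.0356; -0.39, SE 0.08, adjusted p = 0.0569 without library 2), with 0.34 (SE 0.06) without oxLDL and -0.08 (SE 0.06; -0.05 without library 2) beside it. Nlrp3 had 42.0, 37.5, 44.2 and 51.6 TPM with oxLDL and tirzepatide, against 40.1, 38.3, 44.5 and 42.3 TPM with oxLDL, and these groups overlapped. The call for Plin2 was lost without control 2, oxLDL 1, 2 or 3, or tirzepatide 1, 2 or 3 (adjusted p from 0.0576 to 0.0948 by edgeR). That for Cxcl2 was lost without control 2, oxLDL 2 or 3, tirzepatide 1, 2 or 3, or library 1 of oxLDL with tirzepatide (adjusted p from 0.051 to 0.0809), and that for Nlrp3 without any library except control 1, control 4 and tirzepatide 4 (adjusted p from 0.0558 to 0.14).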

How the data were processed

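RNA of 16 RAW264.7 libraries was sequenced. The authors deposited, per gene and library, an expected count estimated with RSEM, as whole numbers and not scaled between libraries, and the TPM as deposited is scaled for length and depth, for 21965 genes. Per the submitters' processing notes reads passed through Bowtie2 2.2.8, fastp 0.18.0, RSEM and StringTie 1.3.1 in an order not stated, on builds GRCm39 and mm39; the annotation release and the strand setting are not given in the sources used here, so overlapping antisense genes cannot be told apart.

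Groups were taken from the sample titles. Counts were tested with edgeR 4.0.16 (R 4.3.3): filterByExpr at its minimum count of 10, TMM scaling, and glmQLFit and glmQLFTest. A single fit held all 16 libraries, 1 mean for each group and no block. Contrasts were oxLDL with tirzepatide against oxLDL, tirzepatide against control, and their difference. P-values were adjusted by Benjamini-Hochberg over all tested genes, and an adjusted p under 0.05 was called. The SE is the log2 change divided by the root of the test's F. Adjusted p-values are from this fit unless DESeq2 1.42.0 is named. Log2 CPM used a prior count of 2. The fit was tested on simulated counts with 200 genes changed. It recovered 41.8%, 76.1% and 84.8% of those changed 1.2, 1.4 and 2-fold, with 4.26% false among the genes called. Without library 2 these shares were 32.8%, 74.6%, 81.8% and 5.97%. The simulated libraries of a group shared their means, so none stood apart as libraries 1 and 2 of oxLDL with tirzepatide do. Replicates differed by more than counting error (chi-square per degree of freedom 2.74 to 11.1 over 12 pairs), so none was counted as a repeat. Pairs with library 1 or 2 of oxLDL with tirzepatide gave 10.2 to 11.1, and libraries 3 and 4 of that group gave 3.10. Alternatives were other scaling factors (RLE, upper quartile), no filter, a filter of 5 TPM in 4 libraries, only the groups compared, DESeq2, the replicate number as a block, a term for libraries 1 and 2 against 3 and 4, and each library left out.

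The members, the 37 gene lists, the marker lists and the rule for named genes were chosen with earlier results of these data known. That rule took genes called in any of 4 fits, the 10 smallest p-values each way without overlap at 5 TPM or more, fixed genes, and up to 3 members of each list; not all are printed. Ikbke is printed for its levels in library 2, which were seen first. Promoters were matched by symbol for 3 of the 4 called genes.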

Additional observations from a re-analysis of the deposited data

Results flagged for a closer look

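Of 122 groups of 4 libraries tested for a value far from the other 3, 6 were flagged, near the 1 in 20 that chance flags. The genes were chosen with earlier results known, and library 2 of oxLDL with tirzepatide was already set apart by its oxLDL response. Its share of the flags, 4 of the 6, is therefore not a separate result. That library had 3.91 TPM of Il1b, 228 TPM of Scd2 and 116 TPM of Slc7a11, and a position of 0.352 on the genes raised by oxLDL. The others were oxLDL libraries: Jun at 44.9 TPM in library 1, and Ikbke at 15.4 TPM in library 2.

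For 4 of the genes described above, out of 8 called in all, the log2 change with tirzepatide beside oxLDL differed from that without oxLDL by the interaction test of edgeR: Acod1 by -0.87 (adjusted p = 0.000704), Cxcl2 by -0.70 (adjusted p = 0.0221), Plin2 by -0.59 (adjusted p = 0.0221) and Nlrp3 by -0.42 (adjusted p = 0.0356). Acod1 was called in all 23 other settings, and the other 3 were each lost without some single libraries.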

How the results depend on the processing

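The count of 4 genes for oxLDL with tirzepatide against oxLDL was 7 with only the groups compared, 16 with a term for libraries 1 and 2 against 3 and 4 (the order term), 32 without a filter and 33 by DESeq2, and ran from 2 to 8 when single libraries were left out (2 without oxLDL 2, 3 or 4; 7 without library 1 of oxLDL with tirzepatide; 8 without control 1). Without library 2 of oxLDL with tirzepatide the count of 3 was 7 with only the groups compared, 7 with the order term, 8 by DESeq2 and 11 without a filter. The 462 genes for tirzepatide against control were 264 with only the groups compared and ran from 119 (without control 2) to 542; they were 186, 199, 247 and 293 without tirzepatide 1, tirzepatide 2, control 3 and tirzepatide 3. The 8 interaction genes were 23 with the order term, 39 without a filter and 57 by DESeq2, and ran from 1 (without control 2, oxLDL 2, oxLDL 3 or tirzepatide 1) to 16 (without control 4), with 3, 4, 5 and 15 without tirzepatide 3, oxLDL 1, library 1 of oxLDL with tirzepatide and control 1. The causes were not tested.

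Same-numbered libraries of oxLDL with and without tirzepatide deviated together weakly (correlations 0.07, -0.03, 0.08 and 0.11). The oxLDL library of highest correlation bore the same number for libraries 1, 3 and 4 of oxLDL with tirzepatide, and was oxLDL 4 for library 2. Whether the numbers pair the libraries cannot be told from these values, and the main fit held no such term. With the replicate number as a block the counts were 17, 750 and 29 for the 3 tests in that order.

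Of 59 genes in 1686 gene and setting pairs that gave an adjusted p (23 DESeq2 values had none), 1573 kept direction and side of the threshold, 20 lost a call, 63 gained one and 30 turned sign, in 8 genes, none of which was called. When single libraries were left out, the log2 change ran from -0.0266 (without library 2 of oxLDL with tirzepatide) to 0.127 for Tnf, from -0.240 to 0.283 (without library 2) for Csf3, from -0.00180 (without oxLDL 4) to 0.0856 for Acod1, from -0.0542 (without library 2) to 0.165 for Abcg1, from -0.0126 (without library 1 of oxLDL with tirzepatide) to 0.127 for Slc7a11, from -0.116 to 0.0438 (without library 2) for Plin2 and from -0.373 to 0.0805 (without oxLDL 4) for Il6; Csf3 was 0.0274 without oxLDL 1. Without library 2 and with only the groups compared, DESeq2, no filter, the block and the order term, Tnf was -0.0236, -0.0233, -0.0216, -0.0325 and -0.0286, Csf3 0.287, 0.286, 0.288, 0.328 and 0.314, Abcg1 -0.0513, -0.0510, -0.0491, -0.0679 and -0.0689, and Plin2 0.0469, 0.0471, 0.0489, 0.0430 and 0.0538. Hmox1 was 3.00e-05 without a filter and 0.00245 with the block, both without library 2. Without library 2, 39 of 44 list medians moved by less than their spread between libraries. Depth limits low genes such as Il6, Cd5l and Gipr.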
